A study of Homo sapiens with 16 samples.

Results

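The intestinal lineage transcription factors CDX1, CDX2, HNF4A, GATA6, KLF4, KLF5, SOX9 and ELF3 were followed over 3 drugs and their combinations in HCT116 and RKO, both colon cancer lines. Members were the probe sets of an Affymetrix Human Genome U133 Plus 2.0 array, each a set of short oligonucleotides read as 1 signal, whose platform annotation carries a single gene symbol and that symbol is 1 of these 8. This rule found 14 probe sets of 7 genes among 54675 probe sets, of which 41097 carry a single symbol and stand for 19775 genes. HNF4A was not analysed here. The probe sets were 3 for ELF3, 2 each for CDX2, GATA6, KLF4, KLF5 and SOX9, and 1 for CDX1.

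HCT116 and RKO are established lines grown from human colon carcinomas. Each line had 8 arrays, 1 per condition, and the cells of every condition had been harvested after 3 days. The drugs were given singly, in each pair (written as PJ-34/TSA, for example) and all 3 together (PJ-34/5-aza-dC/TSA), and were set against 1 control array per line without any of them. 5-Aza-dC (0.5 µM) inhibits DNA methyltransferases, TSA (trichostatin A, 0.15 µM) inhibits histone deacetylases, and PJ-34 inhibits poly(ADP-ribose) polymerases. The study's methods give PJ-34 at 3 µM for HCT116 and 2 µM for RKO, while its results give 3 µM for RKO. Each line stands for the tumour of 1 person, which limits it as a model of colon epithelium.

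These factors set the identity of the gut lining. CDX1 and CDX2 are homeobox proteins that mark intestinal against gastric epithelium, GATA6 is a zinc finger protein of endoderm, and SOX9 is an HMG box protein of the crypt base, where stem and progenitor cells divide. KLF4 and KLF5 are related zinc finger proteins with opposite places in the normal gut: KLF4 is found in differentiated cells towards the surface and goblet cells, and KLF5 in dividing crypt cells. ELF3 is an ETS family protein restricted to epithelia that takes part in their differentiation. HNF4A, a nuclear receptor, is the remaining factor of the set.

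The genes lie on 6 chromosomes in the GRCh38.p14 annotation: ELF3 at chr1:202010587-202017183, CDX1 at chr5:150166778-150184558, KLF4 at chr9:107484852-107489769, CDX2 at chr13:27960918-27969315, KLF5 at chr13:73054976-73077538, SOX9 at chr17:72121020-72126416 and GATA6 at chr18:22169589-22202528. The annotation was used for positions and sequences only, since the array signals carry no coordinates.

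Since 5-aza-dC acts on the methylation of cytosine in CpG dinucleotides, the 250 bases before the start sites of 4 of these genes are shown from RefSeq (GRCh38.p14), 5′ to 3′ on the gene's strand, with each CpG in capitals. KLF4 and KLF5 are shown because their signals were lower with TSA in HCT116, and ELF3 and CDX2 because probe sets of both were dim in the RKO control. The windows are chr9:107489770-107490019 (minus strand) for KLF4, chr13:73054726-73054975 and chr13:73058755-73059004 (plus strand) for 2 start sites of KLF5, chr1:202010337-202010586 (plus strand) for ELF3 and chr13:27969316-27969565 (minus strand) for CDX2.
KLF4: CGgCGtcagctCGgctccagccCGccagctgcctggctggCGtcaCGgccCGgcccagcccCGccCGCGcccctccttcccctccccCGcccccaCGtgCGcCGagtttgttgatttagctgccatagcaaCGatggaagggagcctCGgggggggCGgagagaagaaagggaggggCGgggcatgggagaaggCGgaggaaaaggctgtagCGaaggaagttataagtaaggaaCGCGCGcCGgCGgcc
KLF5 first start: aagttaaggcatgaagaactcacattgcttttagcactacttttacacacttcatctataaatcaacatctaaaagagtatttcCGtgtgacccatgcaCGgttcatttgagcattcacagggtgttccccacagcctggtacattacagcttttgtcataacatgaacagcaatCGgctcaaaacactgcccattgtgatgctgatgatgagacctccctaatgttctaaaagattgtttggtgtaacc
KLF5 second start: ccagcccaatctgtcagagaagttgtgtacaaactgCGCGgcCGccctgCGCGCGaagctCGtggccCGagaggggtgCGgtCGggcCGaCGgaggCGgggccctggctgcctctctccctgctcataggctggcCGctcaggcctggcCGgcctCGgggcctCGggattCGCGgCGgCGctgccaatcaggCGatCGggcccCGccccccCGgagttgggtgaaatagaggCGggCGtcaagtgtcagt
ELF3: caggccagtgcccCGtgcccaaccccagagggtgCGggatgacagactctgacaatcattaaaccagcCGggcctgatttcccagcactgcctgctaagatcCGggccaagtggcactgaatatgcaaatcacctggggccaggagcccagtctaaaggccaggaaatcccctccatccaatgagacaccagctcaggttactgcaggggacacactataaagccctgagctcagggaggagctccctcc
CDX2: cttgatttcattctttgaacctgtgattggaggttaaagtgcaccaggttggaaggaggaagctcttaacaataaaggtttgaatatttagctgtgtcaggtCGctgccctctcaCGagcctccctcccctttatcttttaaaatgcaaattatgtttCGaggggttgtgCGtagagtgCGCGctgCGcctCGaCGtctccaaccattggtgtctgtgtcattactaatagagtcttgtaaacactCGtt

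The KLF4 window held 25 CpG, and 21.6% of 35116 windows of this length before RefSeq start sites hold at least as many. Between the windows of KLF5 the count was 3 at the first start site (77.1% hold at least as many) and 27 at the second (17.7%). ELF3 had 4 (70.7%), CDX2 10 (52.2%) and GATA6, whose window is not shown, 16 (41.0%), against a median of 11 over all windows, of which 93.9% hold at least 1. CpG reads the same on both strands, so 1 search covers both. DNA methylation was not measured on these arrays, and a CpG count is a description of the reference sequence. Windows were found for 5 of the 7 measured genes, with no entry for SOX9 or CDX1.

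The values were linear signal intensities as deposited, with a common scale (trimmed means of 1000.14 to 1000.16 over the arrays). Median signals were 160 to 210 on HCT116 arrays and 151 to 201 on RKO arrays, and 21.9% to 26.5% of probe sets in HCT116 and 22.4% to 27.3% in RKO read under 50. The values carry no detection call, so signals near or under 50 are given as read and are set to 50 for tests. With 1 array per condition, p-values measure the spread between these arrays after the drug terms, which may be technical. A level of signal is compared between arrays for 1 probe set only, never between genes, and in bulk RNA fewer expressing cells cannot be told apart from less RNA per cell.

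Both lines were checked against markers of colon epithelium before the factors were read. HCT116 had bright CDH1 (E-cadherin, 5297 to 10572), EPCAM (28158 to 35438), KRT8 (11939 to 35261), KRT18 (75723 to 125452) and KRT19 (37031 to 69816). RKO kept EPCAM (3544 to 4139) and KRT18 (14319 to 16263), while KRT8 read 270 to 520, CDH1 3.90 to 117 and KRT19 4.95 to 18.2. The mesenchymal marker VIM read 722 to 11935 in HCT116 and 2420 to 40711 in RKO, with overlap. ZEB1 read 162 to 510 in HCT116 and 20266 to 26029 in RKO. TWIST1 went the other way, at 148 to 684 in HCT116 and 6.95 to 107 in RKO. ZEB2 was dim in both lines, at 14.2 to 128 in HCT116 and 5.29 to 132 in RKO. The markers of mature colon cells VIL1, CDH17, LGALS4 and CEACAM5 reached at most 253, 121, 441 and 553 in HCT116 and 198, 202, 155 and 396 in RKO.

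Arrays of RKO raised a doubt about 2 labels. The 238 probe sets higher with 5-aza-dC in HCT116 (limma) had a median signal of 672 on the RKO array labelled PJ-34 and 157 on that labelled PJ-34/5-aza-dC. The other RKO arrays with 5-aza-dC read 470 alone, 639 with TSA and 647 with both other drugs, and those without it 187 with TSA, 180 with PJ-34/TSA and 140 in the control. The array labelled PJ-34 was thus at the level of arrays with 5-aza-dC, and the array labelled PJ-34/5-aza-dC at the level of arrays without. Both are called by their labels here, and the line differences that passed the test and the RKO drug effects of the factors are given with and without them.

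SOX9, KLF4, KLF5 and ELF3 were all far higher in HCT116 than in RKO, in each of the 8 conditions. GATA6 differed little and CDX2 not detectably, and CDX1 was dim in both lines. In a linear model of all 16 arrays (limma, adjusted p by Benjamini-Hochberg over 42119 probe sets, threshold 0.05), 5 of the 6 factors tested were higher in HCT116 and none lower, where 21.1% of all probe sets were higher and 22.8% lower. The median difference of the 6 factors was 3.21 on the log2 scale, beside -0.01 over all probe sets, and every difference given here, with its SE, is on that scale. CDX1 had too few signals of at least 100 to be tested.

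SOX9 had the largest difference among the 6. The signal of its brightest probe set (202936_s_at) ran from 9077 to 19709 in HCT116 (median 12518) and from 133 to 276 in RKO (median 176). The lowest HCT116 array stood 32.9-fold above the highest RKO array, so the lines did not overlap, and the ratio at matched conditions was 53.0 to 146, with 86.0 between the controls. The fitted difference was 6.17 (SE 0.15, adjusted p = 6.01e-14), and the second SOX9 probe set (202935_s_at) gave 6.38 (SE 0.13, adjusted p = 1.01e-14).

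ELF3 came next on its brightest probe set. This probe set (210827_s_at) read 1682 to 3586 in HCT116 (median 2367) and 75.8 to 277 in RKO (median 147), again without overlap. The difference was 4.05 (SE 0.22, adjusted p = 5.99e-10), and the others gave 2.44 (201510_at, SE 0.24, adjusted p = 6.17e-07) and 3.42 (229842_at, SE 0.24, adjusted p = 1.27e-08). All 3 ELF3 probe sets separated the lines. Of these, 229842_at reached 100 on 8 HCT116 arrays but only 2 RKO arrays. It thus entered the test through the line where it was high and is no further support. With the mean of all probe sets of a gene, ELF3 (3.30) came after KLF5 (3.59). The size varied between probe sets, and RKO signals under 50, on 1 array for 201510_at and 3 for 229842_at, were set to 50, which understates these differences.

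Both Krüppel-like factors were also separated between the lines. KLF5 (209212_s_at) read 1642 to 2845 in HCT116 (median 2303) and 193 to 317 in RKO (median 211), a difference of 3.32 (SE 0.15, adjusted p = 4.65e-11). KLF4 (221841_s_at) read 3737 to 11950 in HCT116 (median 5426) and 469 to 949 in RKO (median 784), a difference of 3.09 (SE 0.11, adjusted p = 4.93e-12). Neither gene overlapped between lines on either of its probe sets: the second KLF5 probe set (209211_at) differed by 3.85 (SE 0.20) and the second KLF4 probe set (220266_s_at) by 2.61 (SE 0.24).

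GATA6 was present in both lines at similar signal. Its brightest probe set (210002_at) read 581 to 1220 in HCT116 (median 919) and 409 to 802 in RKO (median 676). The lines overlapped, with HCT116 higher in 6 of 8 conditions, at 0.884 to 2.33 times RKO and 1.06 times between controls. The difference of 0.42 (SE 0.14) passed the test with an adjusted p of 0.0240, but not without both doubted RKO arrays (0.42, adjusted p = 0.124), with the mean of both GATA6 probe sets (0.16, adjusted p = 0.565) or in 7 of 16 fits that left out 1 array. The second GATA6 probe set (229282_at) was dim, at 37.4 to 209 in HCT116 and 28.5 to 313 in RKO, and differed by -0.09 (SE 0.41).

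The caudal homeobox genes were dim in both lines. CDX2 (206387_at) read 51.2 to 222 in HCT116 (median 117) and 18.4 to 214 in RKO (median 111), with a difference of 0.11 (SE 0.33, 95% interval -0.60 to 0.82, adjusted p = 0.825). Its second probe set (231606_at) read 7.17 to 194 in HCT116 and 19.2 to 192 in RKO, a difference of -0.28 (SE 0.40, adjusted p = 0.634). CDX1 (206430_at), the only probe set of its gene, read 23.7 to 244 in HCT116 (median 67.8) and 17.2 to 94.5 in RKO (median 66.4). The signals of both genes overlapped between the lines, and arrays of each fell under 50.

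Without both doubted RKO arrays the differences were 6.05 for SOX9, 3.71 for ELF3, 3.34 for KLF4 and 3.27 for KLF5, and all still passed the test. Signals alone separated 9 of the 13 probe sets of the factors kept in the model, from SOX9, ELF3, KLF4 and KLF5. These had all 8 HCT116 signals above all 8 RKO signals. Among the 42119 probe sets of the model, 9.85% did so, and 9.85% were separated in the opposite direction. The plot of all signals shows the 4 separated genes, the overlap of GATA6 and the low CDX2 and CDX1.

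**Figure D1:**
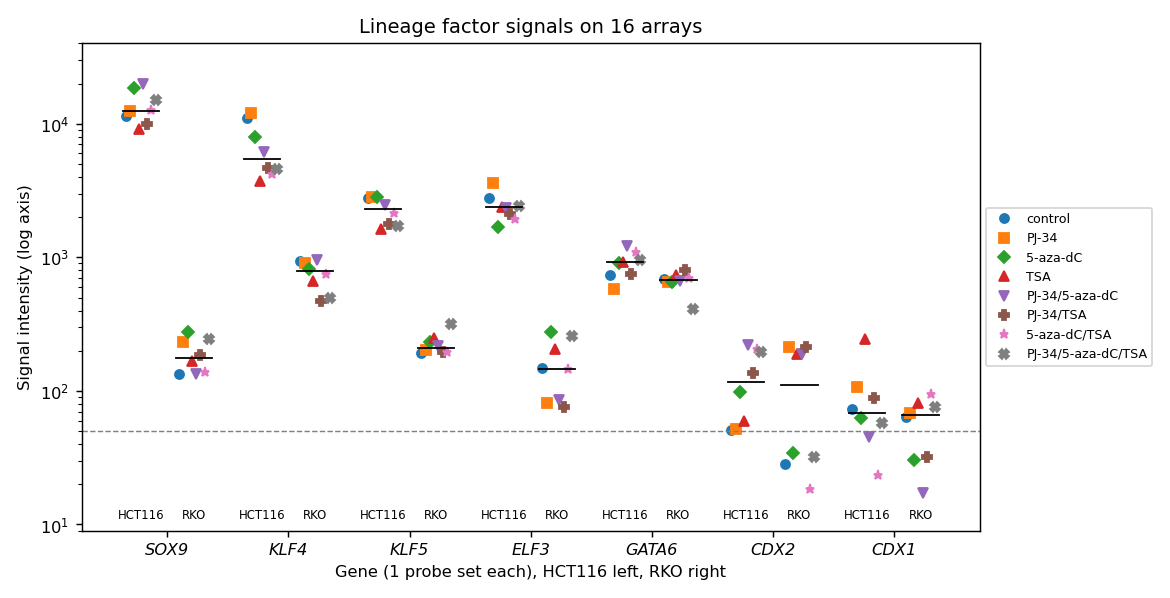
Signal intensity (log axis) of the brightest probe set of each of 7 genes on 16 arrays, with HCT116 left of RKO for each gene, 1 point per array, a bar at the median of 8 arrays and a dashed line at a signal of 50. SOX9 lies at 9077 to 19709 in HCT116 and 133 to 276 in RKO, while GATA6, CDX2 and CDX1 overlap between the lines.

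Other genes of the gut programme were read from lists of the same tissue. Of 20 other gut lineage factors tested, 6 were higher and 4 lower in HCT116. Their median difference was -0.02, beside 3.21 for the 6 factors. Over all probe sets 21.1% were higher and 22.8% lower, not far from these counts, and the same shares stand beside the lists that follow. EHF, like ELF3 an ETS factor of epithelia, was 7.47 higher (SE 0.13; 6440 to 13456 in HCT116, 4.37 to 53.2 in RKO). TCF7L2, the Wnt pathway partner of beta-catenin, was 2.50 higher (SE 0.06), and KLF3 was 1.82 higher (SE 0.11).

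The opposite direction was found for GATA4, a GATA factor of foregut and proximal intestine, which was lower in HCT116 (-2.87, SE 0.29; 7.37 to 149 in HCT116, 488 to 755 in RKO). HNF4G, the relative of HNF4A, was also lower (-1.40, SE 0.28), and so was PROX1, a homeobox factor (-1.49, SE 0.31).

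Genes of differentiated and of stem cells differed in number. Of 17 absorptive cell genes tested, 3 were higher in HCT116, a share under the 21.1% of all probe sets, and none lower. They were KRT20, a keratin of surface cells (3.28, SE 0.23), the carbonic anhydrase CA2 (0.62, SE 0.09) and the brush border peptidase DPP4 (1.05, SE 0.33). None of 9 secretory cell genes and none of 9 stomach and foregut genes passed the test. Of 10 crypt stem cell genes, 6 were higher, led by PROM1 (5.99, SE 0.17), the Wnt regulator RNF43 (4.65, SE 0.25) and the adhesion protein CD44 (1.11, SE 0.06), while LRIG1, an inhibitor of ERBB receptors, was lower (-1.45, SE 0.16).

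Epithelial identity genes were mostly higher in HCT116, as the 4 factors were. Both lists were chosen with earlier results of these data known, so this likeness is a description and no separate evidence. Of 14 tested, 13 were higher in HCT116 and only OVOL2 lower (-1.27, SE 0.17), with a median difference of 4.71. KRT19 was 10.00 higher (SE 0.09), the splicing regulator ESRP1 7.36 (SE 0.14) and EPCAM 3.03 (SE 0.07). Among 8 mesenchymal factors, ZEB1, a repressor of epithelial genes, was lower in HCT116 (-6.09, SE 0.12; 162 to 510 in HCT116, 20266 to 26029 in RKO), and TWIST1 (2.23, SE 0.27) and SNAI1 (1.27, SE 0.25) were higher.

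Among markers of blood, vessel and fibroblast, COL1A1 (4.69, SE 0.22) and COL3A1 (0.91, SE 0.30) were higher in HCT116, and the other 4 of 6 tested did not pass the test. The part of these markers in the line difference of the factors was not tested. The plot of gene lists sets the 6 factors beside these groups.

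**Figure D2:**
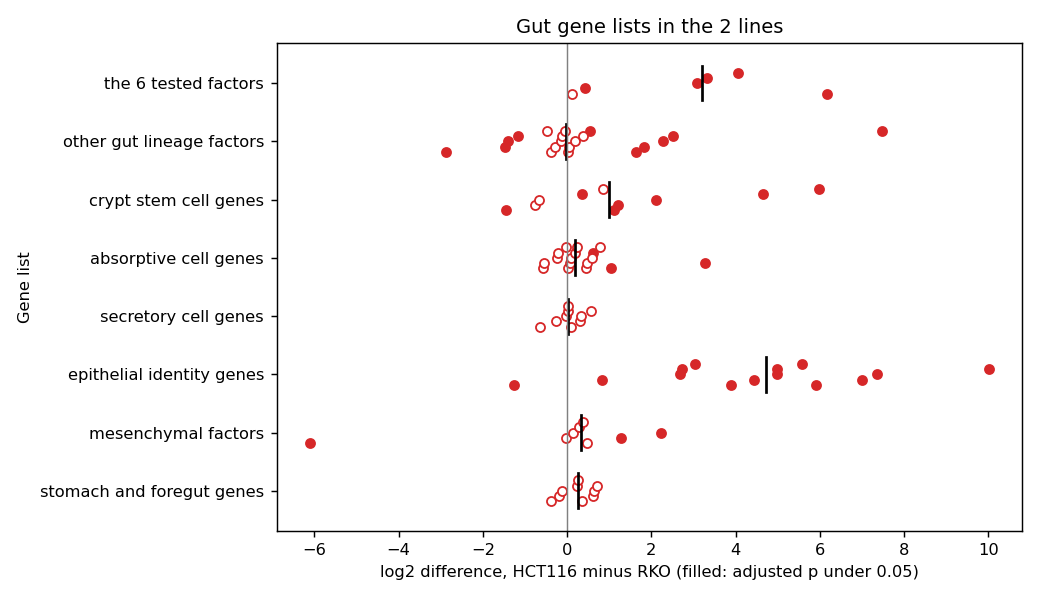
Difference between the lines on the log2 scale (HCT116 minus RKO, x axis) for each gene tested in 8 lists (rows), with filled points for an adjusted p under 0.05 in limma and a black bar at each list's median. The 6 factors have a median of 3.21 and the epithelial identity genes 4.71, while the other gut lineage factors lie around 0 with a median of -0.02.

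Treatment with 5-aza-dC raised SOX9 in HCT116. The signal of 202936_s_at was 18496 (5-aza-dC), 19709 (PJ-34/5-aza-dC), 12620 (5-aza-dC/TSA) and 15158 (all 3 drugs) with 5-aza-dC, and 11438 (control), 12416 (PJ-34), 9077 (TSA) and 9927 (PJ-34/TSA) without it. The 4 arrays with the drug all lay above the 4 without, and at matched conditions the ratio was 1.62 with no other drug, 1.59 with PJ-34, 1.39 with TSA and 1.53 with both. The difference was 0.61 on the log2 scale (SE 0.09, limma adjusted p = 0.00435), or 1.53-fold.

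The second SOX9 probe set followed the first over the 8 HCT116 arrays (r = 0.95, a description over arrays of 1 line). It averaged 13794 ± 2397 with 5-aza-dC and 10257 ± 1337 without it (SD, n = 4 each), without overlap. Its difference was 0.42 (SE 0.09), and its adjusted p of 0.0587 missed the threshold. The call of the first probe set was lost without the array labelled 5-aza-dC (0.58, adjusted p = 0.0642), with no filter on dim probe sets (adjusted p = 0.192), with no variance trend (adjusted p = 0.281) and with all 16 arrays in 1 fit (adjusted p = 0.251).

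SOX9 was the only 1 of 6 factors that passed the test for 5-aza-dC in HCT116, where 0.673% of 35373 probe sets were higher and 0.0707% lower. Of the 12 probe sets tested, 2 had no overlap, both of SOX9 and both higher, against 2.52% of all probe sets. Before adjustment, 4 of 6 factors had a p under 0.05 in limma, as had 3762 of all 35373 probe sets. These factors shared no direction, with SOX9, CDX2 and GATA6 higher and ELF3 lower. The effects of the 6 ran from -0.36 to 1.34.

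CDX2 had the largest of these effects, with wide error. Its brightest probe set read 98.6, 222, 205 and 196 with 5-aza-dC (alone, with PJ-34, with TSA and with both) and 51.2, 52.2, 59.3 and 136 without it (control, PJ-34, TSA and PJ-34/TSA). The signal was higher in 4 of 4 pairs and the groups overlapped by 1 array, PJ-34/TSA. The difference of 1.34 (SE 0.48) had an adjusted p of 0.308. The second CDX2 probe set had the opposite sign (-0.94, SE 0.57), and the 2 probe sets ran against each other over the HCT116 arrays (r = -0.67).

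GATA6 read 911, 1220, 1095 and 954 with 5-aza-dC and 733, 581, 927 and 749 without it, in the same order of conditions. It was higher in 4 of 4 pairs with overlap of 1 array on each side, and the difference of 0.49 (SE 0.19) had an adjusted p of 0.370. ELF3 read 1682, 2343, 1948 and 2419 with 5-aza-dC and 2793, 3586, 2391 and 2111 without it. Its signal was lower in 3 of 4 pairs, with overlap, and the difference of -0.36 (SE 0.16) had an adjusted p of 0.446. The other ELF3 probe sets both gave -0.24 (SE 0.21 and 0.23). KLF4 gave -0.32 (SE 0.16, adjusted p = 0.505) and KLF5 0.04 (SE 0.13, adjusted p = 0.940).

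CDX1 was not tested because of its dim signals. It read 63.0, 45.2, 23.7 and 57.2 with 5-aza-dC and 72.7, 107, 244 and 88.2 without it in HCT116. All 4 arrays with the drug were below the 4 without, a separation that 1.69% of tested probe sets had in this direction, and 2 of the 8 signals were under 50.

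Of the other lists, the absorptive cell gene KRT20 was the only gene that passed the test for 5-aza-dC in HCT116, at 3.09 higher (SE 0.19, adjusted p = 1.07e-06). Over all probe sets 0.673% were higher and 0.0707% lower. None of 13 other gut lineage factors, 9 crypt stem cell genes and 14 epithelial identity genes passed the test. The medians of these lists were 0.07, -0.02 and 0.14, beside -0.01 over all probe sets.

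KLF4, KLF5 and SOX9 were lower with TSA in HCT116, but only the KLF4 call held in all 8 fits that left out 1 array. These 3 of 6 factors passed the test, all lower, where 4.83% of all probe sets were lower and 4.16% higher. Of the 12 probe sets tested, 3 were lower without overlap, both of KLF4 and 1 of KLF5, against 6.95% of all probe sets. The median effect of the 6 factors was -0.29, beside -0.07 over all probe sets.

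KLF4 had the largest change. Its signal was 3737 (TSA), 4663 (PJ-34/TSA), 4208 (5-aza-dC/TSA) and 4560 (all 3 drugs) with TSA, and 10962 (control), 11950 (PJ-34), 7966 (5-aza-dC) and 6190 (PJ-34/5-aza-dC) without it. The 4 arrays with TSA lay close together and below all the others. The difference was -1.07 (SE 0.16, limma adjusted p = 0.00162), which left 47.7% of the signal.

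The size of the KLF4 change varied with the other drugs. At matched conditions, 34.1% of the signal was left with no other drug, 39.0% with PJ-34, 52.8% with 5-aza-dC and 73.7% with both. Without TSA, the arrays with 5-aza-dC were lower than those without (7966 and 6190, against 10962 and 11950), so the spread lay among the arrays without TSA. The interaction of 5-aza-dC with TSA over both lines was 0.49 (SE 0.23) and did not pass the test (adjusted p = 0.981), and 0% of all probe sets passed it.

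The second KLF4 probe set gave the same picture at lower signal. It read 476, 601, 535 and 499 with TSA and 1722, 1282, 1152 and 733 without it, a difference of -1.15 (SE 0.22, adjusted p = 0.00665). Both KLF4 probe sets followed each other over the 8 HCT116 arrays (r = 0.97). The KLF4 call held in all 8 fits that left out 1 array (adjusted p at most 0.0188), and was lost with no filter on dim probe sets (adjusted p = 0.0969) and with no variance trend (adjusted p = 0.118).

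KLF5 (209212_s_at) read 1642, 1769, 2150 and 1728 with TSA and 2774, 2845, 2837 and 2456 without it, in the order used for KLF4. No array with TSA reached the lowest array without it, and the difference was -0.59 (SE 0.13, adjusted p = 0.0164). The second KLF5 probe set (209211_at) averaged 1782 ± 449 with TSA and 2053 ± 136 without it (SD, n = 4 each), with overlap, and gave -0.24 (SE 0.16, adjusted p = 0.396). The 2 KLF5 probe sets were only weakly alike over the HCT116 arrays (r = 0.22), and the mean of both gave -0.41 with an adjusted p of 0.0556.

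SOX9 read 9077, 9927, 12620 and 15158 with TSA and 11438, 12416, 18496 and 19709 without it. The groups overlapped, but the signal was lower with TSA in 4 of 4 pairs, with 68.2% to 80.0% left. The difference was -0.40 (SE 0.09, adjusted p = 0.0173), and the second probe set gave -0.38 (SE 0.09, adjusted p = 0.0231). The KLF5 call was lost in the fits without the HCT116 array of the control, PJ-34, 5-aza-dC or all 3 drugs, and the SOX9 call in these and without 5-aza-dC/TSA (adjusted p at most 0.101 for both genes). Both were also lost with no filter, with no variance trend and with all 16 arrays in 1 fit (adjusted p of 0.0548 to 0.274).

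ELF3, GATA6 and CDX2 had no detectable change with TSA in HCT116. Their differences were -0.18 (SE 0.16, 95% interval -0.53 to 0.16), 0.15 (SE 0.19, interval -0.26 to 0.57) and 0.62 (SE 0.48, interval -0.41 to 1.64). CDX1 read 244, 88.2, 23.7 and 57.2 with TSA and 72.7, 107, 63.0 and 45.2 without it. The TSA array alone stood out for CDX1, and the combinations with TSA did not share its signal.

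**Figure D3:**
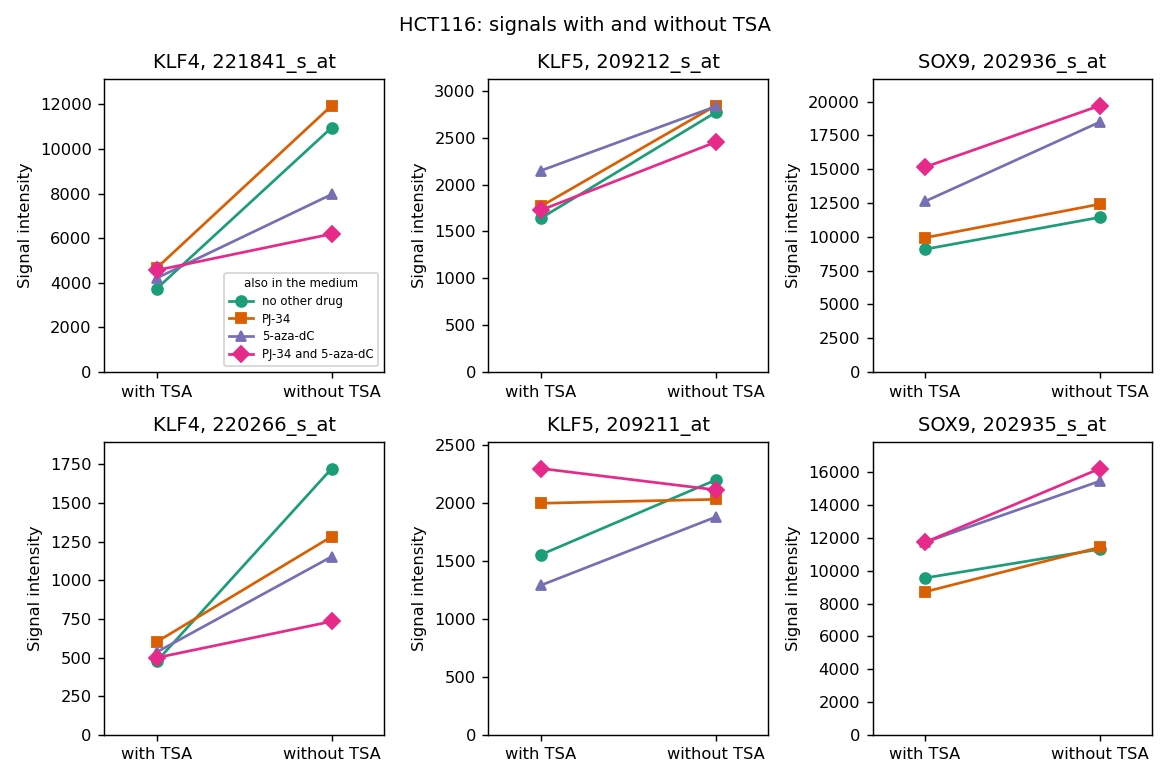
Signal intensity (linear axis from 0) of both probe sets of KLF4, KLF5 and SOX9 on the 8 HCT116 arrays, with TSA at the left and without TSA at the right of each panel, and a line joining the 2 arrays that share the other drugs. The lines of KLF4 meet near 4208 to 4663 with TSA and spread from 6190 to 11950 without it, except for the TSA array at 3737, and the lower KLF5 panel (209211_at) has 1 pair that is higher with TSA.

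Among 13 other gut lineage factors tested for TSA in HCT116, 3 were lower and none higher: KLF3 (-0.82, SE 0.15), EHF (-0.46, SE 0.11) and GFI1, a factor of secretory cells (-1.16, SE 0.33). Over all probe sets 4.83% were lower and 4.16% higher, shares that also stand beside the lists that follow. The median of the 13 was -0.23, beside -0.07 over all probe sets.

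Epithelial identity genes were split. Of 14, 2 were higher, the keratins KRT8 (0.87, SE 0.11) and KRT19 (0.40, SE 0.11), and 3 were lower, ESRP1 (-0.78, SE 0.12), the tight junction gene CLDN3 (-0.88, SE 0.16) and CDH1 (-0.53, SE 0.12). Of 9 crypt stem cell genes, only the Wnt target AXIN2 passed the test, at 1.16 higher (SE 0.19). Among 4 secretory cell genes the mucus protein gene FCGBP was lower (-1.92, SE 0.46), and no absorptive cell gene of 12 passed.

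COL1A1, a fibroblast marker that HCT116 cells also express (491 to 3518), was lower with TSA (-1.37, SE 0.22), and the other 4 of 5 tested markers of blood, vessel and fibroblast did not pass. Their part in the changes of KLF4, KLF5 and SOX9 was not tested.

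No factor passed the test for PJ-34 in either line, where 0% of all probe sets passed the test (limma, 0 called in each line, with 1323 of 35373 in HCT116 and 895 of 33862 in RKO at an unadjusted p under 0.05). In HCT116 the effects ran from -0.11 (GATA6) to 0.58 (CDX2, SE 0.48). SOX9 was higher with PJ-34 in 4 of 4 pairs by 0.15 (SE 0.09, 95% interval -0.05 to 0.35, adjusted p = 0.981). KLF4 gave 0.05 (interval -0.29 to 0.39) and KLF5 -0.09 (interval -0.38 to 0.19). The changes found with TSA were -1.07 (interval -1.41 to -0.73) and -0.59 (interval -0.88 to -0.30). For KLF5 the intervals of TSA and PJ-34 overlapped, and these drugs were not tested against each other.

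In RKO no factor passed the test for any drug. For 5-aza-dC 0% of all 33862 probe sets passed, for TSA 0.00591% and for PJ-34 0%. Counts at an unadjusted p under 0.05 were 1759, 4158 and 895 probe sets. The errors were wider than in HCT116, with a median SE of 0.35 over factors and drugs, beside 0.16 in HCT116. No gene of the other lists passed the test for any drug in RKO either.

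KLF4 came nearest to a change in RKO, with TSA. It read 662 (TSA), 469 (PJ-34/TSA), 755 (5-aza-dC/TSA) and 496 (all 3 drugs) with TSA, and 945 (control), 906 (PJ-34), 813 (5-aza-dC) and 949 (PJ-34/5-aza-dC) without it, as labelled. The groups did not overlap, as for 4.38% of all probe sets in this direction, and KLF4 was the only 1 of 12 probe sets tested to do so. The difference of -0.63 (SE 0.19) had an adjusted p of 0.221, and it was -0.31 (SE 0.24, adjusted p = 0.783) without both doubted arrays. With PJ-34, KLF4 gave -0.23 (SE 0.19), and -0.55 (SE 0.24, adjusted p = 0.882) without them, and with 5-aza-dC 0.03 and 0.02. The second KLF4 probe set, at 40.5 to 188, gave 0.22 (SE 0.46).

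SOX9 in RKO read 276, 135, 138 and 244 with 5-aza-dC and 133, 234, 167 and 186 without it, as labelled. The groups overlapped and the difference was 0.09 (SE 0.38, 95% interval -0.74 to 0.93). Without both doubted arrays it was 0.39 (SE 0.44, adjusted p = 0.730). The effects of TSA and PJ-34 on SOX9 were -0.04 and 0.19 (SE 0.38 each). Without the 2 arrays they were -0.34 and 0.49 (SE 0.53 each), and none passed the test. The second SOX9 probe set gave -0.05 for 5-aza-dC, 0.64 for TSA and -0.31 for PJ-34 (SE 0.42 each), which did not pass either.

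GATA6 in RKO read 743 (TSA), 802 (PJ-34/TSA), 695 (5-aza-dC/TSA) and 409 (all 3 drugs) with TSA, and 690 (control), 657 (PJ-34), 651 (5-aza-dC) and 662 (PJ-34/5-aza-dC) without it. Of the arrays with TSA, 3 lay above all others and the array with all 3 drugs lay below them. KLF5, in the same order, read 249, 196, 195 and 317 with TSA and 193, 203, 232 and 219 without it, where the array with all 3 drugs was the highest.

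The effects of KLF5 in RKO were 0.18 for 5-aza-dC, 0.15 for TSA and 0.09 for PJ-34 (SE 0.31 each), and those of GATA6 were -0.29, -0.05 and -0.18 (SE 0.20 each). ELF3 read 277, 84.9, 145 and 259 with 5-aza-dC (alone, with PJ-34 as labelled, with TSA and with both) and 148, 80.6, 208 and 75.8 without it (control, PJ-34 as labelled, TSA and PJ-34/TSA). Its groups overlapped for every drug, and it gave 0.56, 0.27 and -0.80 (SE 0.46 each). Without both doubted arrays, the effects of 5-aza-dC, TSA and PJ-34 were 0.20, 0.06 and 0.18 for KLF5, -0.38, 0.10 and -0.33 for GATA6, and 0.72, -0.22 and -0.31 for ELF3. None of them passed the test in either fit, and the sign turned with the 2 arrays for ELF3 and GATA6 with TSA. CDX2 (206387_at) gave -1.05, 0.01 and 1.04 (SE 0.58 each), and its signal was higher with PJ-34 in 4 of 4 pairs as labelled. The pair of all 3 drugs (31.9) and 5-aza-dC/TSA (18.4) lay under 50 on both arrays. The second CDX2 probe set had the opposite sign with PJ-34 (-0.36, SE 0.56) and was higher in 1 of 4 pairs. CDX2 206387_at was too dim to test without the 2 doubted arrays.

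**Figure D4:**
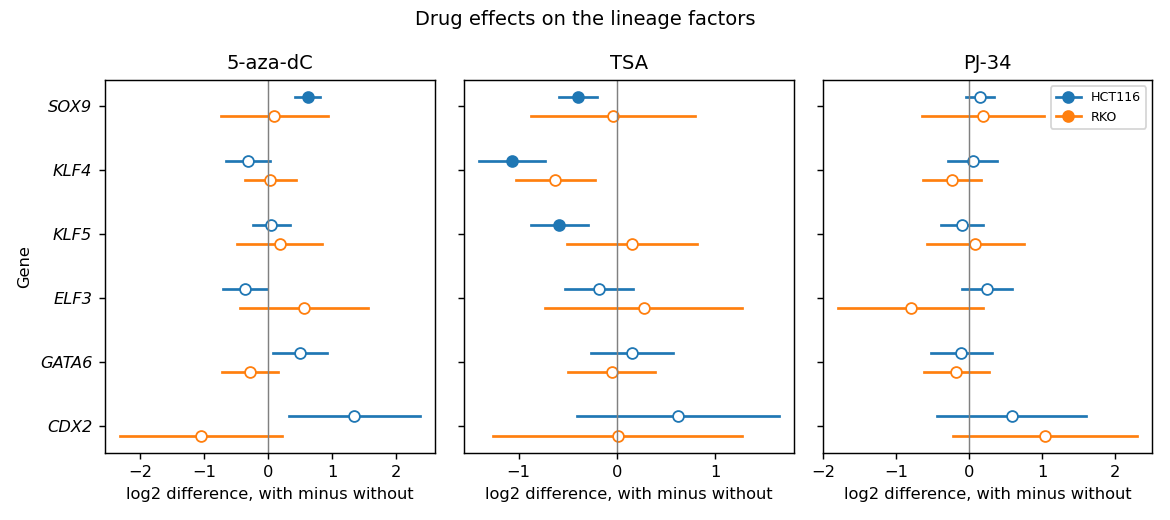
Effect of each drug on 6 factors on the log2 scale (x axis, with minus without, 4 arrays each), for HCT116 (upper point of each pair) and RKO (lower point), with lines for 95% intervals and filled points for an adjusted p under 0.05 in limma. Filled points are SOX9 for 5-aza-dC (0.61) and KLF4 (-1.07), KLF5 (-0.59) and SOX9 (-0.40) for TSA, all in HCT116.

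Differences of the drug effects between the lines were tested themselves. None of the 6 factors passed, for 5-aza-dC (0.0427% of all probe sets passed), TSA (0.283%) or PJ-34 (0%). The calls made in HCT116 alone are therefore not shown to be particular to it. For KLF4 and TSA the difference was -0.44 (HCT116 minus RKO, SE 0.23, adjusted p = 0.473), and -0.93 (SE 0.23, adjusted p = 0.101) without both doubted RKO arrays. For KLF5 and TSA it was -0.74 (SE 0.29, adjusted p = 0.317; -0.64 without both arrays), for SOX9 and TSA -0.36 (SE 0.31, adjusted p = 0.709; -0.11 without both), and for SOX9 and 5-aza-dC 0.52 (SE 0.31, adjusted p = 0.745; 0.11 without both arrays). The second probe sets of KLF4 and SOX9 gave larger differences for TSA that did not pass either. They were -1.37 for KLF4 (SE 0.47, adjusted p = 0.244) and -1.01 for SOX9 (SE 0.27, adjusted p = 0.129). That of KLF5 had the opposite sign to its first, at 0.54 (SE 0.39, adjusted p = 0.637).

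The largest of these differences was that of CDX2 with 5-aza-dC, at 2.39 (SE 0.66, adjusted p = 0.448), and 2.57 without both doubted arrays (adjusted p = 0.301). It joined a difference of 1.34 in HCT116 to one of -1.05 (SE 0.58) in RKO, both from dim signals. The second CDX2 probe set (231606_at) had the opposite sign, at -0.87 (SE 0.81, adjusted p = 0.848). Interactions between drugs did not pass for any factor either, and for no probe set (0% for each pair of drugs, with 1887, 2872 and 1307 of 42119 at an unadjusted p under 0.05).

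Single arrays were then compared with the control of their line with a reactivation rule: under 50 in the control, then 50 or more with the drugs and a 5-fold or larger ratio. No probe set of the factors had a control signal under 50 in HCT116, so the rule applied in RKO only, to 3 of 14 probe sets: CDX2 206387_at (control 28.4), ELF3 201510_at (control 21.7) and ELF3 229842_at (control 6.84). With 1 array per condition there is no test.

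Of 21 pairs of these probe sets with a treated array, 14 (66.7%) met the rule, while among 14812 probe sets under 50 in the RKO control the share was 19.4% with PJ-34, 20.7% with 5-aza-dC, 17.5% with TSA, 16.8% with PJ-34/5-aza-dC, 16.3% with PJ-34/TSA, 19.1% with 5-aza-dC/TSA and 26.9% with all 3 drugs. All 7 pairs of a probe set share 1 control reading, so the count is not of independent pairs. The probe sets are of CDX2 and ELF3 alone and entered through that low reading, so no enrichment is read from the count. Without both doubted arrays, 9 of 15 pairs met the rule.

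CDX2 206387_at met it on the arrays labelled PJ-34 (214, 7.53-fold), PJ-34/5-aza-dC (188, 6.60-fold), TSA (190, 6.70-fold) and PJ-34/TSA (214, 7.55-fold). It did not with 5-aza-dC (34.5), with 5-aza-dC/TSA (18.4) or with all 3 drugs (31.9). The 8 signals thus fell into 4 at 188 to 214 and 4 at 18.4 to 34.5. The second CDX2 probe set read 68.8 to 190 on the 4 arrays where the first was high and 19.2 to 192 on the other 4, and the 2 did not follow each other (r = -0.08 over 8 arrays).

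ELF3 201510_at met the rule on 5 of 7 arrays, at 120 to 178, and 229842_at on 5 of 7, at 54.7 to 133. They met it together on the arrays of PJ-34/TSA, of all 3 drugs and labelled PJ-34/5-aza-dC. The brightest ELF3 probe set read 148 in the control and 75.8 to 277 on the treated arrays, lower than the control on 4 of 7. The 3 ELF3 probe sets were not alike over the RKO arrays (r of -0.53, 0.07 and 0.47), while their r was 0.56 to 0.58 in HCT116.

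**Figure D5:**
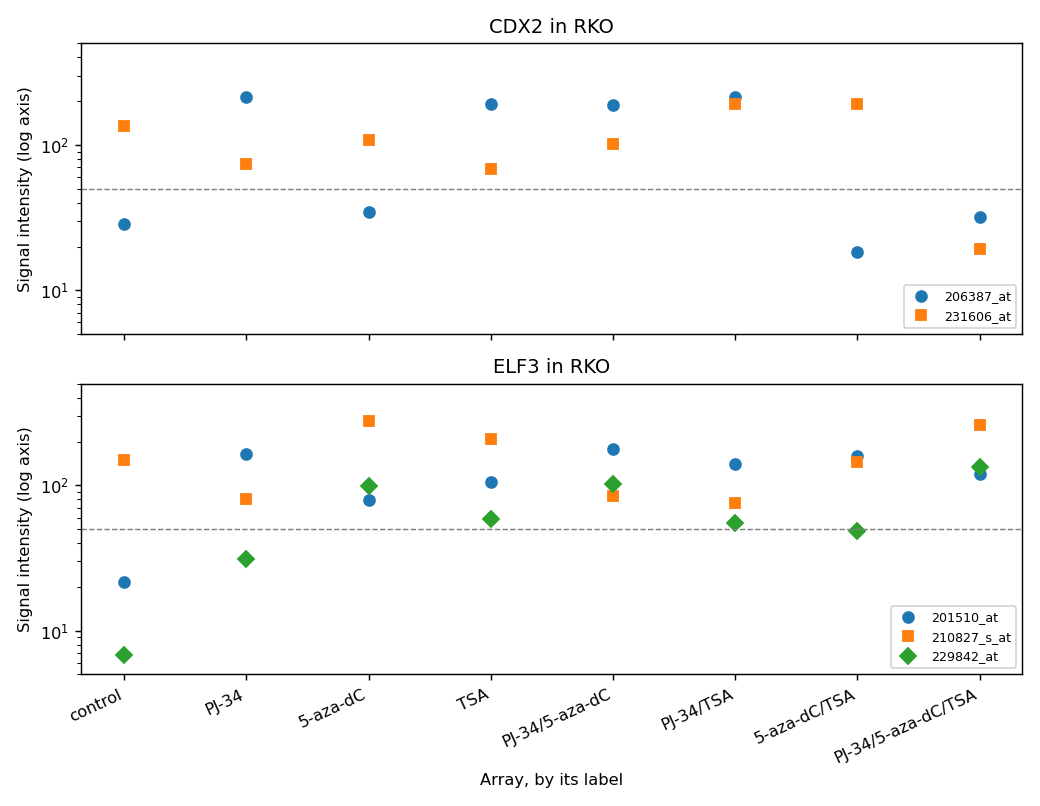
Signal intensity (log axis) of both CDX2 probe sets (upper panel) and the 3 ELF3 probe sets (lower panel) on the 8 RKO arrays, named by their labels on the x axis, with a dashed line at a signal of 50. CDX2 206387_at lies at 188 to 214 on 4 arrays and at 18.4 to 34.5 on 4 others, a split that CDX2 231606_at does not share, and the 3 ELF3 probe sets differ in which arrays are high.

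Genes whose signals over the 16 arrays were most like those of each factor, after each line's mean was subtracted, were named by Pearson's r among 42119 probe sets, as a description. The arrays share their drug treatments, and each value is among the highest of that many. KLF4 was most like KDM7A (0.96), PNISR (0.95) and ARID2 (0.93), SOX9 like IRS2 (0.89), PARP3 (0.88) and OVAAL (0.87), and KLF5 like FUT5 (0.88), LCORL (0.87) and CLDND1 (0.87). GATA6 was most like RC3H2 (0.88), LIMK2 (0.87) and CYB561 (0.87), ELF3 like LOC101927131 (0.86), KY (0.85) and GAMT (0.85), and CDX2 like SKI (0.85), BAIAP2 (0.84) and SPNS1 (0.84).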

How the data were processed

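RNA of HCT116 and RKO cells had been hybridized to 16 Affymetrix Human Genome U133 Plus 2.0 arrays, 1 per condition, and arrays were grouped by their labels. The authors deposited linear signal intensity values from GCOS, whose version is not given in the sources used here, scaled on each array, not logged and without detection calls. Gene symbols came from the platform annotation. Positions and sequences came from RefSeq (GRCh38.p14).

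A floor of 50 was applied before log2. Only probe sets reaching 100 on 4 or more arrays of the fit were kept, and 62 control probe sets were left out. Each line was fitted in limma 3.58.1 (R 4.3.3) on 1 term for each drug (4 arrays with it, 4 without). The model of all 16 arrays had line, drug, line by drug and drug by drug terms. Moderation used a mean-variance trend, and Benjamini-Hochberg adjustment was made within each of 13 comparisons. The models were tested on simulated data with independent normal noise and no drug interactions. Labels were taken as true there, so the doubt about the RKO labels was not covered. The number of arrays limits the precision.

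A gene was represented by its probe set with the highest mean signal, and all others of the factors were also read. From each other list, up to 3 genes per comparison and direction with the smallest p were named. The members and lists were chosen with earlier results of these data known. Alternatives changed the floor, filter, scaling, variance trend, probe set choice, model and arrays.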

Additional observations from a re-analysis of the deposited data

Results flagged for a closer look

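Among 14 groups of 8 arrays (7 genes in 2 lines), 3 had 1 array far from the others by Dixon's criterion on linear signals. Chance flags about 1 in 20 groups where values are normally distributed, which was not checked for these signals. CDX1 read 244 on the HCT116 TSA array, above the next value of 107. GATA6 read 409 on the RKO array with PJ-34/5-aza-dC/TSA, below the next value of 651. KLF5 read 317 on that same RKO array, above the next value of 249. Their causes were not tested.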

How the results depend on the processing

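SOX9, KLF4, KLF5 and ELF3 remained higher in HCT116 under all 9 other settings and in all 16 fits without 1 array, and no result that passed the test changed sign under any of them. The count of factors past the test for the lines was 5, and 4 to 5 under other settings or without 1 array. GATA6 was lost without the HCT116 array of the control, PJ-34/5-aza-dC or all 3 drugs, and without the RKO array of the control, 5-aza-dC, TSA or all 3 drugs (adjusted p of 0.0511 to 0.0925).

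For 5-aza-dC in HCT116 the count fell to 0, against 1 in the reported fit, with no filter, with no variance trend and with all 16 arrays in 1 fit, and was 0 to 1 without 1 array (0 without the array labelled 5-aza-dC). For TSA in HCT116 it was 3, but 0 with no filter and with no variance trend, 1 with all 16 arrays in 1 fit, where KLF4 alone passed, 2 with the mean of all probe sets of a gene, where KLF5 was lost, and 1 to 3 without 1 array. It was 1 without the arrays labelled control, PJ-34, 5-aza-dC or all 3 drugs. The other 10 tested comparisons had 0 factors past the test under every setting, and the count of reactivated pairs stayed at 14 with a control limit of 100. The cause was not tested.

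Over all probe sets, 5-aza-dC calls in HCT116 were 263, but 2 with no filter, 19 with no variance trend and 95 to 1606 without 1 array. TSA calls were 3180, but 323, 0 and 920 to 5475. Without both doubted RKO arrays, 610 probe sets passed for 5-aza-dC in RKO, against 0 with them, and none of the factors tested did (CDX2 was then too dim to test). For TSA in RKO 5 passed, against 2. Without 1 array the counts in RKO were 0 to 62 for 5-aza-dC (62 without the array labelled PJ-34) and 0 to 75 for TSA (75 without that array, 48 without the one labelled PJ-34/5-aza-dC and 42 without the control). Line differences of the 5-aza-dC effect were 18, with 0 to 95 under other settings and 0 to 38 without 1 array, and of the TSA effect 119, with 0 to 227 and 0 to 689. Interactions between drugs were 0, with at most 4 without both doubted arrays and 0 to 31 without 1 array (31 for 5-aza-dC with PJ-34 without the RKO TSA array).

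Every array carries the replicate number 1, so the numbers pair no arrays. With matched conditions as blocks, an alternative chosen after seeing the data, no call of a factor was gained or lost, and the counts over all probe sets were 225 for 5-aza-dC and 4619 for TSA in HCT116 and 9 for TSA in RKO. CDX1 was too dim to test, and signals near 50 limit CDX2, CDX1 and most factors in RKO.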
